A study of Homo sapiens with 9 samples.

Results

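The genes described here encode tight junction and cell polarity proteins: 35 genes, taken as a list of names drawn up with earlier results of these data known, of which 33 had a probe set assigned to that gene alone, among 18417 genes with such a probe set on the array. The probe set listed for OCLN, the occludin gene, is shared with its pseudogene OCLNP1, and F11R, a junctional adhesion molecule gene, had no probe set listed, so both are left without values. Total RNA came from Hep3B, an established human hepatocellular carcinoma cell line, on 9 Affymetrix arrays in 3 groups of 3. The groups were cells left untreated, cells transfected with a nonsense siRNA, and cells transfected with an siRNA directed at YAP, the transcriptional coactivator encoded by YAP1. A small interfering RNA (siRNA) lowers the transcript it matches. Cells were grown for 24 h before transfection and RNA was taken after 24 h more, and the only agent named besides the siRNAs is the transfection reagent Oligofectamine. The sample titles begin with HUH, whereas the cell line field names Hep3B, which was followed here.

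Tight junctions seal the space between neighbouring epithelial cells at the border of the apical and lateral membrane. Claudins and MARVEL-domain proteins such as occludin and tricellulin form the strands, and cytoplasmic plaque proteins such as ZO-1 tie them to actin. The border itself is set by polarity modules: the PAR and Crumbs complexes on the apical side and the Scribble module on the basolateral side. In hepatocytes tight junctions separate the bile canaliculus from the blood side. Several of these proteins also bind or restrain Hippo pathway components, the pathway that controls YAP.

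All values are log2 array signals, so a difference of 1 is a doubling, and a gene is said to have passed when its limma adjusted p, corrected over all 18417 genes, was under 0.05. YAP1 read 8.78, 8.62 and 8.69 on the untreated arrays, 8.66, 8.75 and 8.68 with nonsense siRNA and 7.54, 7.52 and 7.48 with YAP siRNA, which left 44.0% of the nonsense siRNA level. Array medians differed by at most 0.05. The median signal over genes was exceeded by 12 of 12 hepatocyte and hepatoma markers, 6 of 7 cholangiocyte and progenitor, 2 of 5 intestinal or squamous, 2 of 10 stromal and endothelial and 1 of 7 leukocyte markers. The mean over the hepatocyte list was 10.8 on each untreated array and between 10.8 and 10.9 on the others, and that over the cholangiocyte list lay between 9.07 and 9.12 on untreated arrays, 9.02 and 9.22 with nonsense siRNA and 9.06 and 9.14 with YAP siRNA. The corresponding ranges were 6.96 to 6.99, 6.88 to 6.92 and 6.93 to 6.97 for the stromal list, 6.97 to 7.04, 6.88 to 6.98 and 6.89 to 7.03 for the leukocyte list and 7.70 to 7.73, 7.64 to 7.71 and 7.69 to 7.83 for the intestinal or squamous list. By limma 3 of these markers passed between YAP siRNA and nonsense siRNA, where 4.53% of all genes were called. The progenitor marker CD24 was lower (-0.41, adjusted p = 0.0411). The stromal marker COL1A2 (0.43, adjusted p = 0.000538) and the intestinal marker VIL1 (0.39, adjusted p = 0.000878) were higher. Between YAP siRNA and untreated cells only VIL1 passed, at 0.30 (adjusted p = 0.00825), where 3.09% of all genes were called. The part of these markers in the members' results was not tested. Untreated replicate 3, nonsense siRNA replicate 2 and YAP siRNA replicate 3 lay on one side of the leading component of the deviations from the group means, which held 38.2% of that variance, so counts are also given without those 3 arrays. Untreated replicate 3, at 4.34, was less far out than nonsense siRNA replicate 3, at -5.79 on the other side. Leaving out arrays picked by their deviations narrows the spread, so more genes are called and a member that still passes is no independent support. Separate cultures are not stated for the samples of a group, so p-values measure the spread between these samples only, and 3 arrays per group limit the precision. The same arrays serve in more than one comparison, and in a bulk sample fewer cells carrying a transcript and less of it per cell cannot be told apart.

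Setting YAP siRNA against nonsense siRNA asks which junction and polarity transcripts differ with lowered YAP1 among transfected cells. With no other YAP siRNA group, effects of lower YAP1 and other effects of this siRNA cannot be told apart. LIN7C, which encodes a small scaffold protein of the Crumbs complex, fell by 1.07, CLDN12, which encodes a claudin, fell by 0.77, and CLDN4, another claudin gene, rose by 0.28. The other 30 measured members did not pass. By limma 3 of 33 members were called, 1 higher and 2 lower, where 4.53% of all genes were called, 1.92% higher and 2.61% lower, and 7 members had an unadjusted p under 0.05 where 15.8% of all genes did. The median difference over the 33 members was 0.01, as over all genes (0.01). Without the 3 arrays left out together, where 6.99% of all genes were called, the same 3 members passed (LIN7C at -1.05, CLDN12 at -0.79 and CLDN4 at 0.23).

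**Figure D1:**
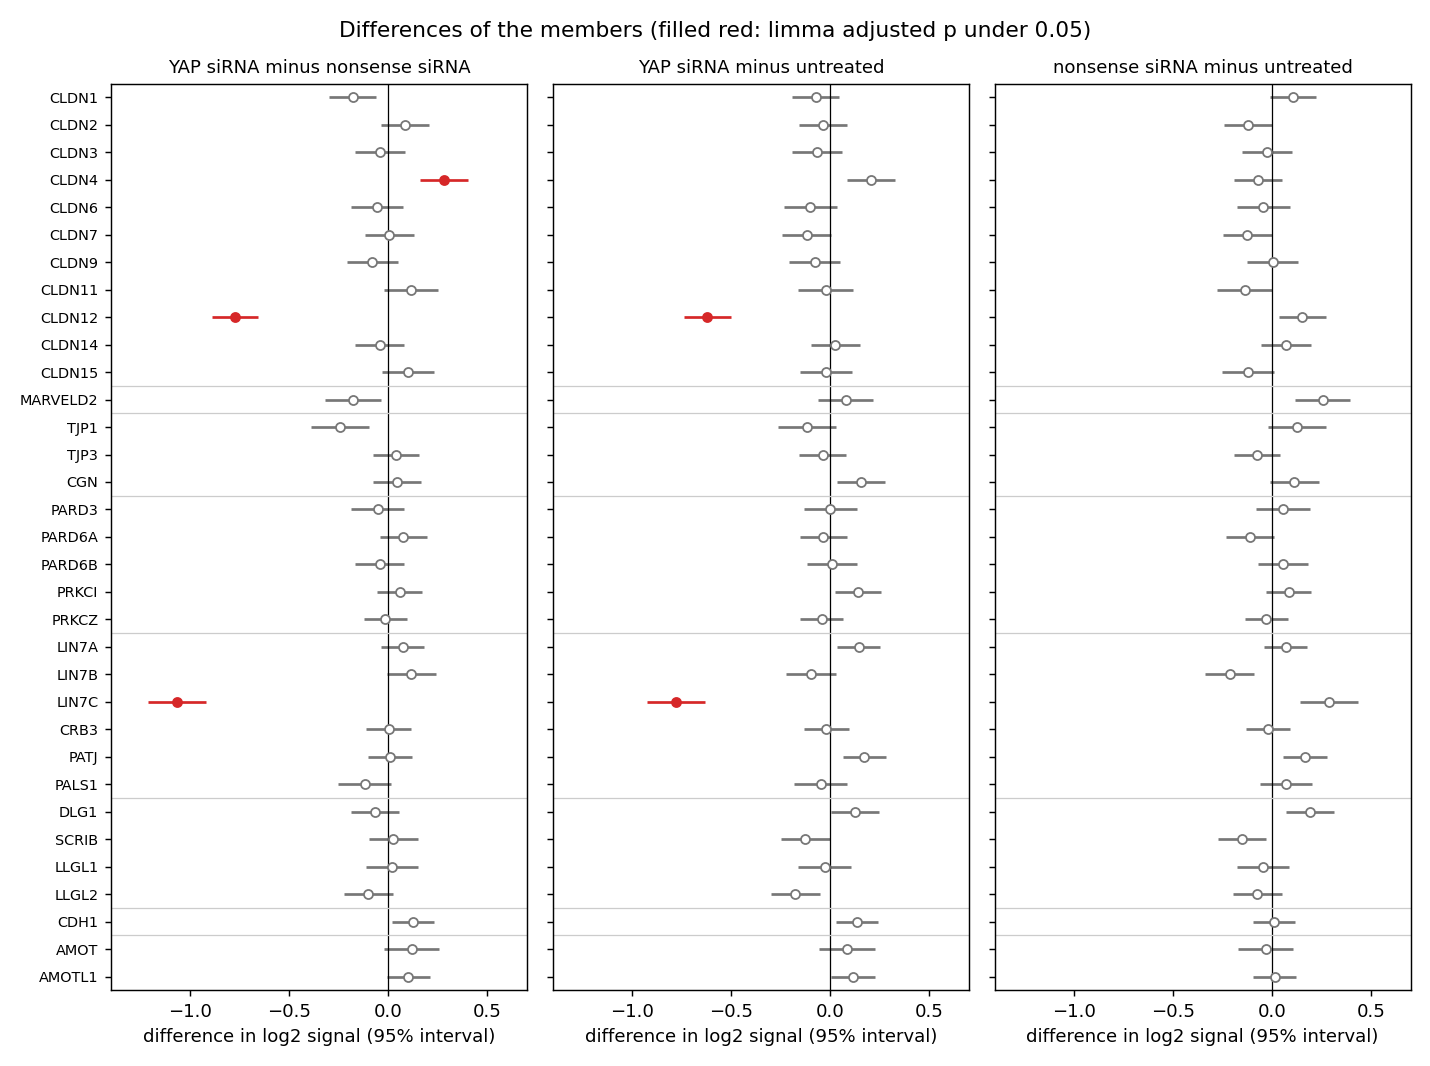
Difference in log2 signal of the 33 measured members in the 3 comparisons, with 95% intervals from the limma fit that are not corrected for the number of genes; horizontal lines separate the roles, from claudins at the top to angiomotins at the bottom. LIN7C and CLDN12 lie far to the left in both comparisons with YAP siRNA, CLDN4 lies to the right in both and passed against nonsense siRNA only, and the remaining members lie near 0.

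The windows before the transcription starts of the 3 genes that passed are shown because LIN7C and CLDN12 fell together and CLDN4 rose. Each is the 250 bases before the RefSeq start, build GRCh38.p14, read 5′ to 3′ on the gene's strand, with matches to any of 3 motifs in capitals. The motifs, searched on both strands, were GGAATG, the core bound by TEAD factors, the DNA-binding partners of YAP; TGANTCA, bound by AP-1; and CAGGTG, an E-box bound by the SNAIL and ZEB repressors.
LIN7C, chr11:27506770-27507019, minus strand: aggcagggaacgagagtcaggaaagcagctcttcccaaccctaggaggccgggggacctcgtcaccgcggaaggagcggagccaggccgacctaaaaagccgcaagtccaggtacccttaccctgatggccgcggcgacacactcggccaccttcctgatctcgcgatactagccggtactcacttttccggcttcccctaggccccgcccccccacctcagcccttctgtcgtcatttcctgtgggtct
CLDN12, chr7:90403211-90403460, plus strand: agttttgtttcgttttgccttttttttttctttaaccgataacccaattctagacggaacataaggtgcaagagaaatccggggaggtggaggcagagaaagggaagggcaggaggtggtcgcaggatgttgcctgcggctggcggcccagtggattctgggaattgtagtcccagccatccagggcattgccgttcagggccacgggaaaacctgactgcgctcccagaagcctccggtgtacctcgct
CLDN4, chr7:73830746-73830995, plus strand: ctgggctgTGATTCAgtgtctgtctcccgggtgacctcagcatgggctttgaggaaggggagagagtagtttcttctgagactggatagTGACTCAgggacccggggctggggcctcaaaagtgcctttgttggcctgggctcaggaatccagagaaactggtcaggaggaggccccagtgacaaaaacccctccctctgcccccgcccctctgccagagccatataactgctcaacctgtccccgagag

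The windows of LIN7C and CLDN12 held none of the 3 motifs, and that of CLDN4 held 2 matches to the AP-1 motif as searched. Their first letters lie 242 and 161 bases before the start. The motif allowed any middle base: the match at 242 is TGATTCA and that at 161 is TGACTCA. Only the match at 161 has the C or G usual there in AP-1 sites. The table of RefSeq windows covered 28 of the 35 genes, in 46 windows, since some genes have several starts. The TEAD core was present in 3 of these 46 windows, in the genes CLDN14 and PRKCI, and in 11.9% of all 35116 windows. The AP-1 motif was present in 3 member windows (CLDN15, CLDN2 and CLDN4) against 6.57% of all windows, and the E-box in 12, of 10 genes, against 17.5%. G and C made up 63.2% of the LIN7C window, 54.4% of that of CLDN12 and 58.8% of that of CLDN4. A match is a run of letters in this window and not a bound site, and a missing match says nothing about sites elsewhere.

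Among the claudins, the strand-forming membrane proteins that set which ions and solutes pass between cells, 1 of 11 measured genes fell, 1 rose and 9 did not pass, where 2.61% of all genes were lower and 1.92% higher. CLDN12 read 8.45, 8.38 and 8.37 on the untreated arrays, 8.55, 8.48 and 8.63 after nonsense siRNA, and 7.82, 7.78 and 7.75 after YAP siRNA. The 3 YAP siRNA arrays lay below all 6 control arrays, with no overlap. The mean was 8.56 ± 0.08 (SD, n = 3) with nonsense siRNA and 7.78 ± 0.04 (SD, n = 3) with YAP siRNA, which left 58.5% of the control level (SE 0.0549 on the log2 scale, 95% interval -0.89 to -0.66, limma adjusted p = 7.44e-07). This was the 12th largest fall among the 18417 genes.

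CLDN4, which encodes a claudin known for limiting sodium passage, read 6.96, 7.01 and 7.04 on the untreated arrays, 6.91, 6.89 and 6.996 after nonsense siRNA, and 7.12, 7.24 and 7.27 after YAP siRNA. Every YAP siRNA array lay above every control array, and the probe set was dim, with a mean under the median signal of 7.31 over genes. The rise of 0.28 after YAP siRNA (SE 0.0567, 95% interval 0.16 to 0.40, limma adjusted p = 0.00860) corresponds to 121% of the nonsense siRNA level. CLDN4 did not pass without nonsense siRNA replicate 1 (adjusted p = 0.0520). CLDN3, its neighbour on chromosome 7, had means of 8.11 ± 0.07 (SD, n = 3) with nonsense siRNA and 8.07 ± 0.09 (SD, n = 3) with YAP siRNA, a difference of -0.04 (adjusted p = 0.830).

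The 9 other measured claudin genes differed by between -0.18 and 0.11 after YAP siRNA against nonsense siRNA. CLDN1, which encodes a claudin that the epidermal barrier needs, was at the lower end, with 11.05, 11.03 and 11.05 after nonsense siRNA and 10.90, 10.86 and 10.83 after YAP siRNA (-0.18, limma adjusted p = 0.0845). The untreated arrays read 10.93, 10.85 and 11.03 for CLDN1 and overlapped those of YAP siRNA. Among the alternative fits CLDN1 passed against nonsense siRNA with array weights only (limma adjusted p = 0.0197). CLDN11, the claudin gene of myelin and of the Sertoli cell barrier, was at the upper end, at 0.11 (adjusted p = 0.443). CLDN2, which encodes a pore-forming claudin for cations, differed by 0.08, CLDN15, another pore former, by 0.10, CLDN14 by -0.04 and CLDN7 by 0.01. CLDN6, an embryonic claudin gene that is off in most adult tissue, averaged 9.32 ± 0.08 (SD, n = 3) on untreated arrays, 9.28 ± 0.07 (SD, n = 3) on those of nonsense siRNA and 9.22 ± 0.09 (SD, n = 3) on those of YAP siRNA, a difference of -0.06 between the transfected groups (95% interval -0.19 to 0.08). CLDN9, its close relative, differed by -0.08.

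Within each array, CLDN12 was also set against the mean of the other 10 measured claudins. CLDN12 minus that mean lay between 0.50 and 0.83 on the 6 control arrays and between -0.13 and 0.03 on the 3 YAP siRNA arrays. It lay between 0.50 and 0.60 on untreated arrays and between 0.67 and 0.83 with nonsense siRNA, so the control groups did not overlap either. CLDN4 minus CLDN3 lay between -1.30 and -1.04 on the 6 control arrays and between -0.96 and -0.73 with YAP siRNA. These pairs were chosen after their values were seen, so the differences are a description with no test.

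**Figure D2:**
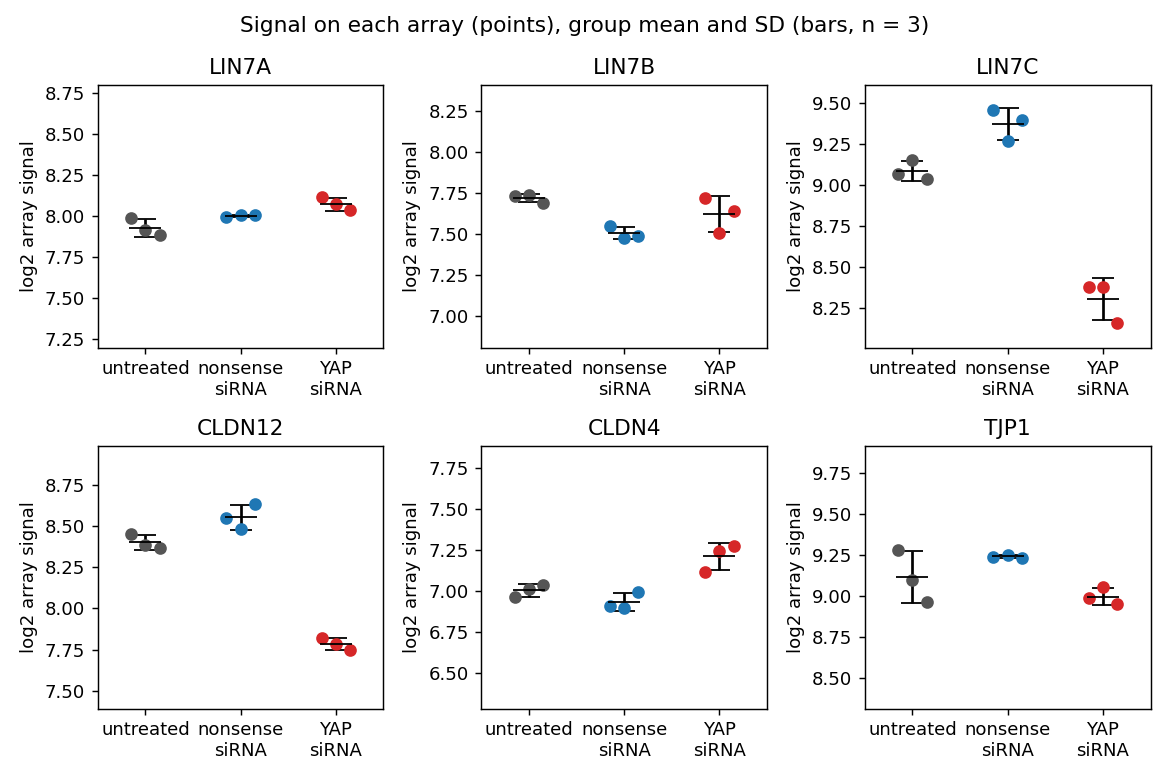
Log2 array signal of the 3 LIN7 genes, CLDN12, CLDN4 and TJP1 on each of the 9 arrays (points), with the group mean and SD (black bars, n = 3); every panel spans the same range of log2 units. LIN7C and CLDN12 are lower on all 3 YAP siRNA arrays than on any control array, whereas LIN7A and LIN7B stay within 0.3 of their untreated means.

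The other membrane protein and plaque genes did not pass. MARVELD2, which encodes tricellulin, the protein of junctions where 3 cells meet, read 8.18, 7.98 and 7.99 in untreated cells, 8.33, 8.29 and 8.30 after nonsense siRNA and 8.16, 8.21 and 8.01 after YAP siRNA. Its nonsense siRNA arrays stood above both other groups, which overlapped each other (YAP siRNA minus nonsense siRNA -0.18, limma adjusted p = 0.168). For YAP siRNA against nonsense siRNA MARVELD2 passed with array weights only (adjusted p = 0.0420). TJP1, the gene of the plaque scaffold ZO-1, read 9.28, 9.10 and 8.96 in untreated cells, 9.24, 9.25 and 9.23 after nonsense siRNA and 8.99, 9.06 and 8.95 after YAP siRNA. The YAP siRNA arrays of TJP1 lay below the nonsense siRNA arrays and overlapped the untreated ones, and the difference from nonsense siRNA was -0.24 (SE 0.0684, adjusted p = 0.0569). TJP1 passed with only the 6 arrays of the comparison (adjusted p = 0.0210), with only genes at or above the median signal (0.0424), without untreated replicate 1 (0.0206) and without untreated replicate 3 (0.0254). It also passed with array weights (0.00466). TJP3, the ZO-3 gene, differed by 0.04 and CGN, which encodes the plaque protein cingulin, by 0.04.

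The PAR complex places atypical protein kinase C at the apical junction. Of its 5 measured genes 0 passed by limma against nonsense siRNA, where 4.53% of all genes did. An unadjusted p under 0.05 was found for 0 of the 5, where 15.8% of all genes had one. Array weights likewise called 0, where 13.1% of all genes were called. With only 5 genes, counts of 0 say little about the complex as a whole. PARD3, the scaffold that brings the complex to junctions, differed by -0.05 (95% interval -0.19 to 0.08). The adaptor genes PARD6A and PARD6B differed by 0.08 and -0.04, and the kinase genes PRKCI and PRKCZ by 0.06 and -0.01. PARD6A had a mean of 7.30, just under the median signal of 7.31 over genes. The mean of PRKCI was 8.98 ± 0.03 (SD, n = 3) untreated, 9.06 ± 0.06 (SD, n = 3) with nonsense siRNA and 9.12 ± 0.06 (SD, n = 3) with YAP siRNA.

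In the Crumbs complex, which marks the apical membrane, 1 of 6 measured genes fell and 5 did not pass, against the 2.61% of all genes that were lower. CRB3, the transmembrane protein at its centre, differed by 0.00 (95% interval -0.11 to 0.11), PATJ, a scaffold with many PDZ domains, by 0.01 and PALS1, which links Crumbs to PATJ and to the LIN7 proteins, by -0.12 (adjusted p = 0.380). The LIN7 proteins are small adaptors with an L27 domain, by which they bind PALS1 or CASK, and a PDZ domain. LIN7C read 9.07, 9.15 and 9.03 in untreated cells, 9.46, 9.27 and 9.39 after nonsense siRNA, and 8.38, 8.38 and 8.16 after YAP siRNA. All YAP siRNA arrays lay below all control arrays, and all nonsense siRNA arrays lay above all untreated ones. YAP siRNA left 47.7% of the nonsense siRNA level (SE 0.0688, 95% interval -1.21 to -0.92, limma adjusted p = 3.40e-07), the 4th largest fall among the 18417 genes.

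The paralogs of LIN7C did not pass. LIN7A read 7.99, 7.92 and 7.88 in untreated cells, 7.99, 8.003 and 8.004 after nonsense siRNA, and 8.11, 8.07 and 8.03 after YAP siRNA, a difference of 0.07 between the transfected groups (adjusted p = 0.583). LIN7B read 7.73, 7.74 and 7.69 in untreated cells, 7.55, 7.48 and 7.49 after nonsense siRNA, and 7.72, 7.51 and 7.64 after YAP siRNA, a difference of 0.12 (adjusted p = 0.357). LIN7C minus LIN7A, taken within each array, lay between 1.08 and 1.46 on the control arrays and between 0.13 and 0.31 on the YAP siRNA arrays. LIN7C minus LIN7B lay between 1.34 and 1.41 on untreated arrays, 1.79 and 1.91 with nonsense siRNA and 0.52 and 0.87 with YAP siRNA, so the control groups differed by 0.50 and did not overlap. Both are descriptions with no test, since LIN7C was chosen after its values were seen. The protein-coding genes on either side of LIN7C in the RefSeq order, LGR4 and BDNF, differed by 0.08 (adjusted p = 0.683) and -0.11 (0.418), and GTPBP10, next to CLDN12, by 0.03 (0.915).

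**Figure D3:**
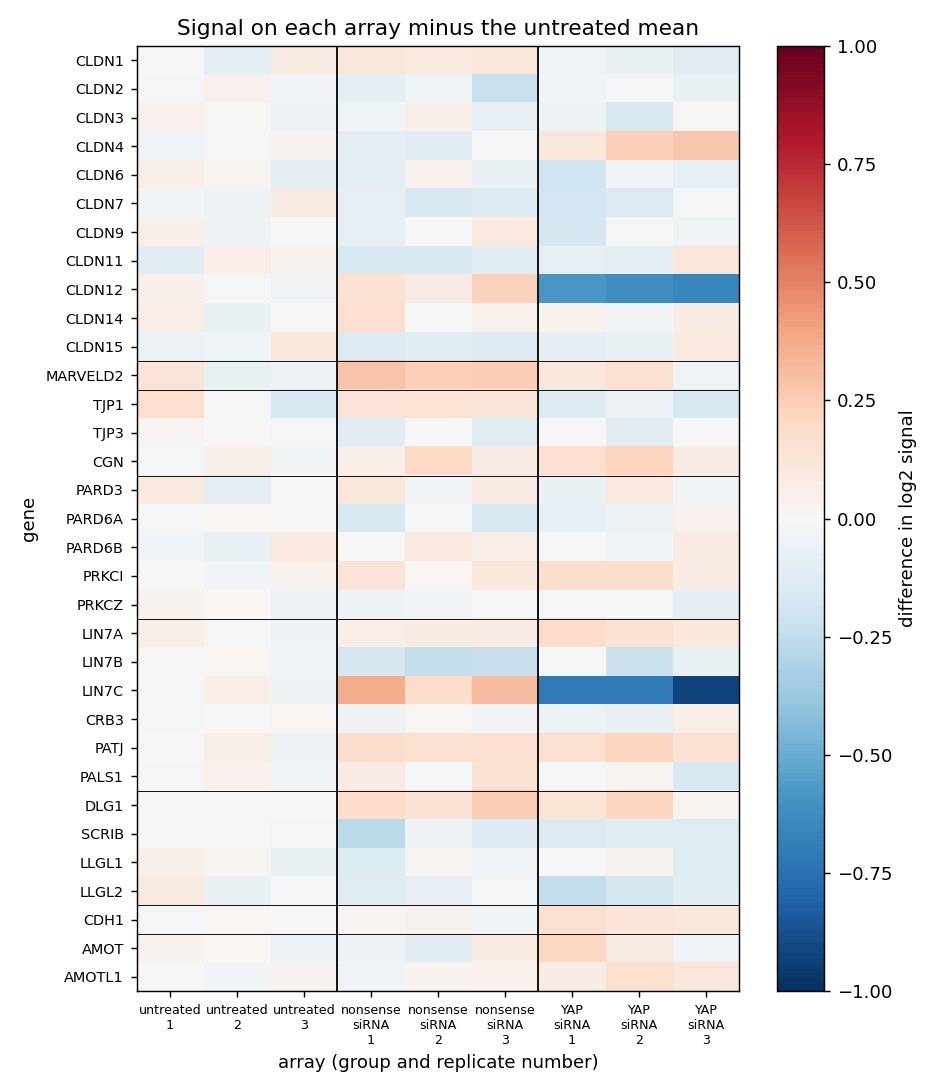
Signal of each of the 33 measured members on each of the 9 arrays minus the mean of the 3 untreated arrays (red higher, blue lower, in log2 units); black lines separate groups and roles. The dark blue cells of LIN7C and CLDN12 are confined to the 3 YAP siRNA columns. MARVELD2, LIN7C, DLG1, PATJ and CLDN12 are among the members above their untreated mean on all 3 nonsense siRNA arrays.

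The Scribble module keeps the basolateral membrane distinct from the apical one. Its 4 measured genes gave 0 calls by limma against nonsense siRNA, where 4.53% of all genes were called. An unadjusted p under 0.05 was found for 0 of the 4, where 15.8% of all genes had one. Array weights also called 0, where 13.1% of all genes were called. With only 4 genes, counts of 0 say little about the module as a whole. DLG1, SCRIB, LLGL1 and LLGL2 differed by -0.07, 0.03, 0.02 and -0.10. CDH1, the gene of E-cadherin, which joins epithelial cells below the tight junction, had means of 8.50 ± 0.02 (SD, n = 3) untreated, 8.51 ± 0.04 (SD, n = 3) with nonsense siRNA and 8.63 ± 0.03 (SD, n = 3) with YAP siRNA. All 3 YAP siRNA arrays of CDH1 lay above all 6 control arrays, but the difference of 0.12 did not pass (adjusted p = 0.212). Among the alternative fits it passed with array weights only (0.0348). The angiomotins are junctional proteins that bind YAP and hold it in the cytoplasm. AMOT differed by 0.12 (adjusted p = 0.443) and AMOTL1 by 0.10 (adjusted p = 0.363), while AMOTL2, the remaining angiomotin and a known YAP target gene that is not among the members, fell by 0.43 (adjusted p = 0.000225). AMOT, whose mean of 6.90 lay under the median signal over genes, passed with array weights only (adjusted p = 0.0291).

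The 3 YAP siRNA arrays did not overlap the 3 nonsense siRNA arrays in 11 of the 33 members, 6 higher and 5 lower, where 20.2% of all genes did not overlap. Besides LIN7C and CLDN12, the lower ones were CLDN1, MARVELD2 and TJP1, and besides CLDN4 the higher ones were LIN7A, CLDN11, CLDN15, CDH1 and AMOTL1. These counts include small differences: 29 of the 33 members differed by less than 0.2.

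Setting YAP siRNA against untreated cells asks whether the members also differed from cells that were not transfected. By limma 2 of 33 members were called, both lower, where 3.09% of all genes were called, 1.63% higher and 1.46% lower, and 12 members had an unadjusted p under 0.05 where 15.8% of all genes did. The groups did not overlap in 12 members, 8 higher and 4 lower, where 20.5% of all genes did not overlap. LIN7C fell by 0.78 (SE 0.0688, 95% interval -0.93 to -0.63, adjusted p = 1.52e-05), which left 58.3% of the untreated level, and CLDN12 fell by 0.62 (SE 0.0549, 95% interval -0.74 to -0.50, adjusted p = 1.52e-05), which left 65.1%. CLDN4 was at 0.21 and did not pass (adjusted p = 0.0636). It passed after median centring (0.0458) and after quantile normalization (0.0337). The 30 remaining members lay between -0.18, for LLGL2, which encodes a Scribble module protein, and 0.17, for PATJ. TJP1 and CLDN1, at -0.12 (adjusted p = 0.435) and -0.07 (0.559), were closer to untreated cells than to nonsense siRNA in their YAP siRNA levels. Without the 3 arrays left out together 3 members were called, as PRKCI also passed, at 0.19 (adjusted p = 0.0430), where 8.47% of all genes were called.

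Nonsense siRNA was set against untreated cells to see whether transfection with a control siRNA changed these transcripts. By limma 0 of 33 members were called, where 0.614% of all genes were called and 0.337% were higher and 0.277% lower (after median centring the share of calls that were higher moved from 54.9% to 70.1%); 8 had an unadjusted p under 0.05 where 19.5% of all genes did. LIN7C had the largest difference, 0.29 (SE 0.0688, adjusted p = 0.0686), followed by MARVELD2 at 0.26 (adjusted p = 0.0832), LIN7B at -0.21 (adjusted p = 0.0987) and DLG1 at 0.19 (adjusted p = 0.115). The groups did not overlap in 15 of the 33 members, 8 higher and 7 lower, against 22.7% of all genes. DLG1 read 8.75, 8.75 and 8.74 in untreated cells and 8.93, 8.89 and 8.996 after nonsense siRNA. SCRIB read 8.04, 8.04 and 8.02 in untreated cells and 7.76, 7.98 and 7.91 after nonsense siRNA.

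These calls depended on the arrays used. Without nonsense siRNA replicate 2 there were 4 of 33 members called against untreated cells, where 7.98% of all genes were called: DLG1 (adjusted p = 0.0459), LIN7C (0.0110), MARVELD2 (0.0378) and SCRIB (0.04996). The same 4 were called without the 3 arrays left out together, where 12.6% of all genes were called. Without YAP siRNA replicate 3, which bears on this comparison through the shared spread, LIN7C alone was called (0.0386), where 1.24% of all genes were. Since every nonsense siRNA array of LIN7C lay above the untreated ones, its difference after YAP siRNA was larger against the nonsense siRNA arrays than against the untreated ones.

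Genes of the same structures outside the 35 were read from further lists. Of 29 other tight junction genes, 1 fell and 0 rose after YAP siRNA against nonsense siRNA, where 2.61% of all genes were lower and 1.92% higher, and the median difference was 0.01. The gene that fell was CXADR, whose product is an immunoglobulin-like junction protein and the receptor of coxsackieviruses and adenoviruses. CXADR read 9.67, 9.78 and 9.58 in untreated cells, 9.83, 9.63 and 9.87 after nonsense siRNA and 9.18, 9.07 and 8.89 after YAP siRNA. Its YAP siRNA arrays lay below all 6 control arrays, and it fell by 0.73 against nonsense siRNA (SE 0.0801, limma adjusted p = 6.21e-05) and by 0.63 against untreated cells (adjusted p = 0.000372).

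Of 37 other polarity genes, 4 fell and 0 rose against nonsense siRNA, beside the same shares of all genes, 2.61% lower and 1.92% higher, and the median difference was -0.01. RAC1, a small GTPase that acts on actin at forming junctions, fell by 0.42 (SE 0.0514, limma adjusted p = 0.000162), from 10.88, 10.83 and 10.91 after nonsense siRNA to 10.48, 10.46 and 10.41 after YAP siRNA. AMOTL2 read 8.48, 8.61 and 8.59 after nonsense siRNA and 8.14, 8.12 and 8.12 after YAP siRNA. CAB39, which encodes the MO25 scaffold of the polarity kinase LKB1, fell by 0.43 (adjusted p = 0.00274), and WWC1, the gene of the Hippo regulator KIBRA, fell by 0.36 (adjusted p = 0.00373). All 4 also fell against untreated cells, AMOTL2 by 0.51, RAC1 by 0.47, CAB39 by 0.44 and WWC1 by 0.38, and MARK3, a polarity kinase gene, rose there by 0.21 (adjusted p = 0.0491). MARK3 no longer passed in 6 of the 9 fits that each left out 1 array, with an adjusted p of up to 0.197 when YAP siRNA replicate 2 was the one removed. Against untreated cells nonsense siRNA gave 0 calls by limma in either list, with 3 of 29 tight junction and 10 of 37 polarity genes at an unadjusted p under 0.05, where 19.5% of all genes were. Without the 3 arrays left out together it gave 4 calls in each list, where 12.6% of all genes were called. That fit also called CGNL1 and VAPA beside CXADR among the tight junction genes after YAP siRNA against nonsense siRNA.

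**Figure D4:**
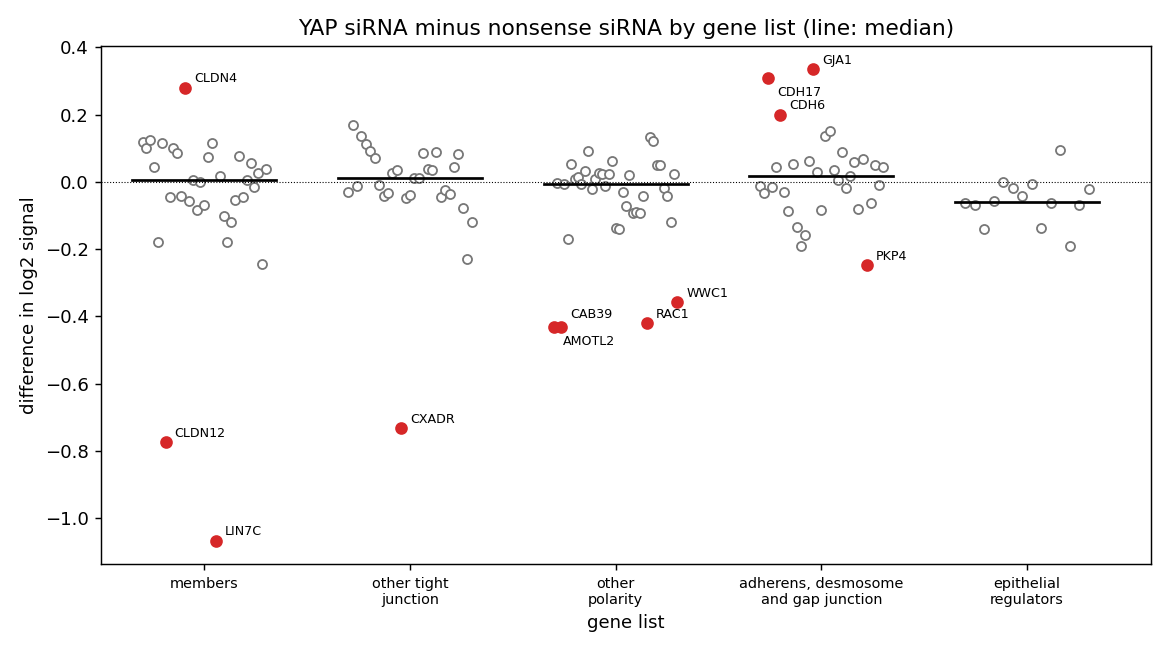
Difference in log2 signal between YAP siRNA and nonsense siRNA for the 33 measured members and 4 further gene lists, 1 point per gene in alphabetical order within a list, filled red where the limma adjusted p was under 0.05; black lines are medians. LIN7C, CLDN12 and CXADR are the points below -0.7, and the list medians lie close to 0.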

How the data were processed

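The authors deposited 1 log2 signal per probe set and array; that the scale is log2 was inferred from the range of the values. Per the labels' protocols, biotinylated cRNA was made by Affymetrix's standard procedure; how background was corrected and arrays were normalized is not stated in the sources used here. Of 33297 probe sets 21214 were listed in the platform annotation, 19460 with 1 gene; of a gene's probe sets the brightest over the 9 arrays was used. MARVELD2 had 2 with nearly equal values. All 9 arrays and 18417 genes entered a single linear model of group means in limma 3.58.1 in R 4.3.3 (two-sided, Benjamini-Hochberg, adjusted p under 0.05). Members and lists were chosen with earlier results of these data known; every member is named, and further genes where they passed, at most 6 per list and comparison. On simulated data with 18417 genes, YAP siRNA against nonsense siRNA recovered 66% of changes of 0.3, 94% of 0.5 and 100% of 1. That simulation drew the noise of each gene independently and so lacked the deviations that genes share on these arrays. No change under 0.3 was simulated. Of 9 same-numbered pairs of arrays 3 had deviations correlated over 0.1 (range -0.34 to 0.34), so the numbers were not taken as pairing. Alternatives were other scalings, filters, probe set rules, variance models and array subsets. RefSeq promoter windows were searched with Python 3.11.15, and figures were drawn with matplotlib 3.10.9.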

Additional observations from a re-analysis of the deposited data

How the results depend on the processing

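LIN7C and CLDN12 passed in both comparisons with YAP siRNA under all 20 alternatives, LIN7C between -1.12 and -0.99 and CLDN12 between -0.81 and -0.73 against nonsense siRNA, and CLDN4 passed against nonsense siRNA in 18 of the 19 that tested it. With 1 array left out, 2.31% to 6.68% of all genes were called for YAP siRNA against nonsense siRNA. For YAP siRNA against untreated cells the share was 1.51% to 4.21%, and for nonsense siRNA against untreated cells 0.0597% to 7.98%. In those fits the number of members called was 2 to 4 against nonsense siRNA. It was 2 to 2 for YAP siRNA against untreated cells and 0 to 4 for nonsense siRNA against untreated cells. With array weights, chosen after seeing the data, it was 8, 6 and 7, where 13.1%, 9.55% and 14.2% of all genes were called, and without nonsense siRNA 2, YAP siRNA 3 and untreated 3 together, also chosen after seeing the data, nonsense siRNA against untreated cells gave 4; the cause was not tested. With the replicate block the counts were 3, 2 and 0, as without it, with LIN7C at an adjusted p of 3.42e-06 and CLDN4 at 0.00926; over all genes the block gave 789 calls in place of 834 against nonsense siRNA, 509 in place of 569 and 65 in place of 113 in the other comparisons, and the numbers were not taken as pairing. Against nonsense siRNA the 8 members called with array weights were LIN7C, CLDN12, CLDN4, TJP1, CLDN1, MARVELD2, CDH1 and AMOT. YAP1 fell under every alternative run. The filter on dim genes removed CLDN4 from the test. How often differences under 0.3 would be recovered with 3 arrays a group was not tested.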

Other observations

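Of 31 genes of adherens junctions, desmosomes and gap junctions, 3 rose and 1 fell after YAP siRNA against nonsense siRNA, where 1.92% of all genes were higher and 2.61% lower. GJA1, the gene of the gap junction protein connexin 43, read 10.30, 10.28 and 10.44 in untreated cells, 10.39, 10.24 and 10.31 after nonsense siRNA and 10.65, 10.70 and 10.60 after YAP siRNA, and rose by 0.33 (SE 0.0600, limma adjusted p = 0.00383). CDH17, which encodes liver-intestine cadherin, rose by 0.31 (adjusted p = 0.00329) and CDH6, the K-cadherin gene, rose by 0.20 (adjusted p = 0.0317). PKP4, a plakophilin gene of the p120 catenin family, fell by 0.25 (adjusted p = 0.00868). CDH6 no longer passed in 5 of the 9 fits that each left out 1 array, at most with an adjusted p of 0.134 when nonsense siRNA replicate 1 was removed. Against untreated cells CDH17 rose by 0.39, CDH6 by 0.34, GJA1 by 0.31 and VEZT, which encodes the cadherin-associated protein vezatin, by 0.24. VEZT did not pass in 6 of 9 such fits (adjusted p up to 0.199) and GJA1 in 3 (0.0570), the highest without YAP siRNA replicate 2 in both. Between nonsense siRNA and untreated cells only the desmosomal cadherin gene DSC2 passed, at 0.34 (adjusted p = 0.0246), and it was lost in 4 of 9 fits (0.150, without nonsense siRNA replicate 1).

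A further list held 14 measured genes tied to the epithelial state: regulators such as SNAIL, ZEB and GRHL factors, and marker genes such as VIM. By limma 4.53%, 0.614% and 3.09% of all genes were called for YAP siRNA against nonsense siRNA, nonsense siRNA against untreated cells and YAP siRNA against untreated cells. Of the 14 listed genes only 5 had a mean signal at or above the median over genes, and 0 of the 14 passed in any of the 3 comparisons. Those at an unadjusted p under 0.05 numbered 2, 1 and 3 for YAP siRNA against nonsense siRNA, nonsense siRNA against untreated cells and YAP siRNA against untreated cells, where 15.8%, 19.5% and 15.8% of all genes were. Of the 14 genes 1 was higher after YAP siRNA than after nonsense siRNA, where 10256 of all 18417 genes were. Their median difference in this comparison was -0.06, where that over all genes was 0.01. The list mixes genes that oppose and genes that favour the epithelial state, so this median has no direction for that state. VIM, the vimentin gene, was at -0.19 (adjusted p = 0.234). VIM passed and was lower without nonsense siRNA replicate 2 and with array weights. For YAP siRNA against untreated cells ESRP2, also on this list, passed and was lower in 3 fits. These were the fits without untreated replicate 3, without the 3 arrays left out together and with array weights. For nonsense siRNA against untreated cells ESRP2 and GRHL1 passed without those 3 arrays, and GRHL1 also with array weights.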
